A study of Mus musculus with 8 samples.

Results

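The tumour suppressor p53 gene, its negative regulator Mdm2, 6 further genes that p53 is known to activate and the stress genes Gadd45a and Gadd45b were followed in mouse bone marrow-derived dendritic cells. These are antigen-presenting cells grown in culture from bone marrow. The 10 genes were picked by symbol as p53 targets and GADD45 genes, and each matched 1 row among the 55880 rows of the expression table. All 10 were abundant enough to be tested.

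RNA sequencing gave 8 libraries, 4 labelled Control and 4 labelled LMF. All cells were wild-type C57BL/6, taken from male mice of 6 weeks and cultured over 6 days in medium with interleukin-4 at 10 ng/mL and GM-CSF at 20 ng/mL. The groups were taken from the sample titles, since the treatment entry is the same for all 8. Control cells received no treatment. LMF cells spent 24 h with ITRs in the medium and were then placed in a low-frequency magnetic field (LMF), with RNA collected at 6 h. The labels do not spell out ITR, and the series title names an intracellular magnetic torque-regulator. ITRs and field came together in the LMF group, so their shares in any difference cannot be told apart, and the magnetic micromotor group named in the series' design was not analysed here. No label says whether libraries of a group came from separate cultures or mice, so the p-values describe the spread between these libraries, which may be technical.

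Summed gene counts were 17309368 to 21585750 in Control and 16592672 to 18532878 in LMF. LMF replicate 4 stood apart from its group on principal component 2 (10.7% of the variance), where it scored -27.2 against 6.79 to 14 in LMF replicates 1 to 3. In pairwise comparison of gene counts, LMF replicate 1 was the farthest from its group (chi-square over degrees of freedom 5.87 to 7.8, against 3.65 to 4.95 among LMF replicates 2 to 4), and 5047 genes were called without it, against 4845 with all libraries and 4425 without LMF replicate 4. The dendritic cell markers Itgax, Cd74, H2-Ab1, Zbtb46, Ccr7, Flt3 and Fscn1 were present in every library, 5 of these 7 higher and 1 lower in LMF, and Cd209a had at most 5 counts. The summed level of 8 macrophage markers was 5710 to 6400 CPM (read counts scaled to library size) in Control and 3870 to 4020 CPM in LMF, with 6 of 8 lower and none higher. Most of the fall in this sum was that of Apoe, with means of 3160 CPM in Control and 1300 CPM in LMF. Csf1r (1820 and 1790 CPM) and Adgre1 (387 and 400 CPM) were not called. For 8 markers of neutrophils and their precursors the summed level was 1820 to 1900 CPM in Control and 2150 to 2200 CPM in LMF. Of these, 5 were higher (Elane, Mpo, Prtn3, Mmp8 and S100a8) and 1 was lower (Ly6g), while Camp and Ltf were not called. Of all tested genes 17.5% were called higher and 16.9% lower. Mast cell and basophil markers were at 111 to 127 CPM in Control and 134 to 147 CPM in LMF. B cell markers were at 52.2 to 56.9 and 43.2 to 50.4 CPM, and T and NK cell markers at 9.13 to 10 and 9.23 to 11.7 CPM. No marker was at 0 in all libraries. The part of these shifts in the values given here was not tested, and a bulk library cannot tell fewer cells of a type from less RNA per cell.

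The p53 protein is a transcription factor that is held at a low level mainly because MDM2, a ubiquitin ligase, marks it for degradation. Mdm2 is itself a p53 target, which closes a negative feedback loop, and it has an internal promoter that p53 activates beside an upstream one that does not need p53. When p53 is stabilised by DNA damage or other stress, it raises genes of cell cycle arrest such as Cdkn1a, genes of cell death such as Fas and genes of DNA repair. GADD45 proteins are small stress proteins that bind cyclin B-CDK1, PCNA and the kinase MEKK4. In mouse cells Gadd45a is known as a p53 target, and Gadd45b is best known as a gene induced by NF-kappaB and TGF-beta.

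The promoter windows of 6 genes are shown: the GADD45 genes, and the genes in whose windows a p53 half-site was found. They come from RefSeq's GRCm38.p6 assembly and span 250 bases before to 50 bases after a gene's start. Windows existed for 8 of the 10 genes, 9 windows in all, with Cdkn1a holding an upstream and a downstream one. Zmat3 and Trp53inp1 had no entry. Capitals mark matches to the p53 consensus half-site and, in Trp53 only, to the kappaB motif GGNNTTTCC. Each is written 5′ to 3′ on the gene's strand.
Mdm2 (chr10:117710709-117711008, minus strand): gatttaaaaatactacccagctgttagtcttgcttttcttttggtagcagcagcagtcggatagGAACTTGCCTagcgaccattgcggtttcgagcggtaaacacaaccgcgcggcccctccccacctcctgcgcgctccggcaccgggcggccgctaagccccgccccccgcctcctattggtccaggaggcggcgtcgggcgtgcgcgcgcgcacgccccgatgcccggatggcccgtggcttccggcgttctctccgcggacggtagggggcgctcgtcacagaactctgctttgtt
Cdkn1a, upstream window (chr17:29090729-29091028, plus strand): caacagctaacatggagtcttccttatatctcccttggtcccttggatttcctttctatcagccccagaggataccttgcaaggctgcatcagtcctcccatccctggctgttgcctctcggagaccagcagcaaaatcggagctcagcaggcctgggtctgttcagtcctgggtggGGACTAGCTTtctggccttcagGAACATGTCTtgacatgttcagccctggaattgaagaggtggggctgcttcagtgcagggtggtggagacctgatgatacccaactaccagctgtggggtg
Gadd45a (chr6:67037358-67037657, minus strand): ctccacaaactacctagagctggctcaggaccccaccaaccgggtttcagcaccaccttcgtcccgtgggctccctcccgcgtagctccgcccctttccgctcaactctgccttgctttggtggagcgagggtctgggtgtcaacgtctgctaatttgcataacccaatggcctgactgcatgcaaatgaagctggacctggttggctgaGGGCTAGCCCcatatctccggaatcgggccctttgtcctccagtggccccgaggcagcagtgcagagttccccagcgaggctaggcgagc
Gadd45b (chr10:80929841-80930140, plus strand): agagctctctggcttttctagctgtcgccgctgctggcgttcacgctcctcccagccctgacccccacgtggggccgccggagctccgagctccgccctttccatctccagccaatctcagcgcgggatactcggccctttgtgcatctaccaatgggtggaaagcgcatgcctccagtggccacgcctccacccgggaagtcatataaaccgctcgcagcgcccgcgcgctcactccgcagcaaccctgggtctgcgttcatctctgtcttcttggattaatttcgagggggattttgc
Trp53 (chr11:69580109-69580408, plus strand): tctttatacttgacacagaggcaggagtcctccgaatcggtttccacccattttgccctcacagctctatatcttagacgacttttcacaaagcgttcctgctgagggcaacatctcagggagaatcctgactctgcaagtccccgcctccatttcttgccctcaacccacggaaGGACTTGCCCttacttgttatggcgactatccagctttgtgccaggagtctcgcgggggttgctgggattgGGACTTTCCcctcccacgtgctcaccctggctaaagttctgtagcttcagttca
Ccng1 (chr11:40755237-40755536, minus strand): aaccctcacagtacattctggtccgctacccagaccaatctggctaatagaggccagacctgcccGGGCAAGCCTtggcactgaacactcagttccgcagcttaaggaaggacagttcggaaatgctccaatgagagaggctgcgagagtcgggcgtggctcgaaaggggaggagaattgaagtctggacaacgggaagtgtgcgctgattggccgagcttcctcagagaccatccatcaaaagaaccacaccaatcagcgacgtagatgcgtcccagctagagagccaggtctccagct

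A p53 consensus half-site was found in 5 of the 9 windows, against 8.36% of all 32851 windows of this length in the table. The 5 were those of Trp53, Cdkn1a, Mdm2, Ccng1 and Gadd45a. The windows of Fas, Phlda3 and Gadd45b and the downstream window of Cdkn1a held none. The genes were picked largely as known p53 targets, so this share is not independent evidence, and its cause was not tested. The upstream Cdkn1a window held 2 matches, GGACTAGCTT at positions -73 to -64 and GAACATGTCT at -51 to -42, counted from the start site as position 0. Mdm2 held GAACTTGCCT at -186 to -177, Gadd45a GGGCTAGCCC at -40 to -31, Trp53 GGACTTGCCC at -75 to -66 and Ccng1 GGGCAAGCCT at -185 to -176. The kappaB motif, searched on both strands, was in the Trp53 window (GGACTTTCC at -4 to 4) and in 5.82% of all windows. The AP-1 motif TGANTCA was in the Fas window (TGAGTCA at -211 to -205) and in 7.81% of all windows. The motifs share no bases in these windows. A half-site was present both where a gene rose 2.77-fold (Mdm2) and where the groups overlapped (Ccng1), and any link between motifs and changes was not tested. Only 1 window existed for Mdm2, and it was not matched to either of its promoters.

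The comparison of LMF with Control asks how the treated cells differed from untreated ones. Of the 10 genes, 6 rose (Mdm2, Gadd45a, Fas, Gadd45b, Cdkn1a and Trp53), 2 fell (Trp53inp1 and Zmat3) and 2 did not pass the test (Ccng1 and Phlda3). Leaving out LMF replicate 1 or LMF replicate 4 also gave 6 that rose and 2 that fell. Without Control replicate 2 or LMF replicate 2, and with limma-trend on log2 FPKM, 6 rose and 1 fell, since Zmat3 was not called. The test was edgeR's quasi-likelihood test with Benjamini-Hochberg adjustment over all 14074 tested genes, and a gene is called at an adjusted p under 0.05. Of all tested genes 34.4% were called, 17.5% higher and 16.9% lower in LMF. The 8 called genes were also those whose 4 LMF libraries lay entirely to one side of the 4 Control libraries, which held for 31.8% of all tested genes, 16.1% above and 15.7% below. The median log2 fold change of the 10 was 0.25, and that of all tested genes was near 0 (-0.00022).

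**Figure D1:**
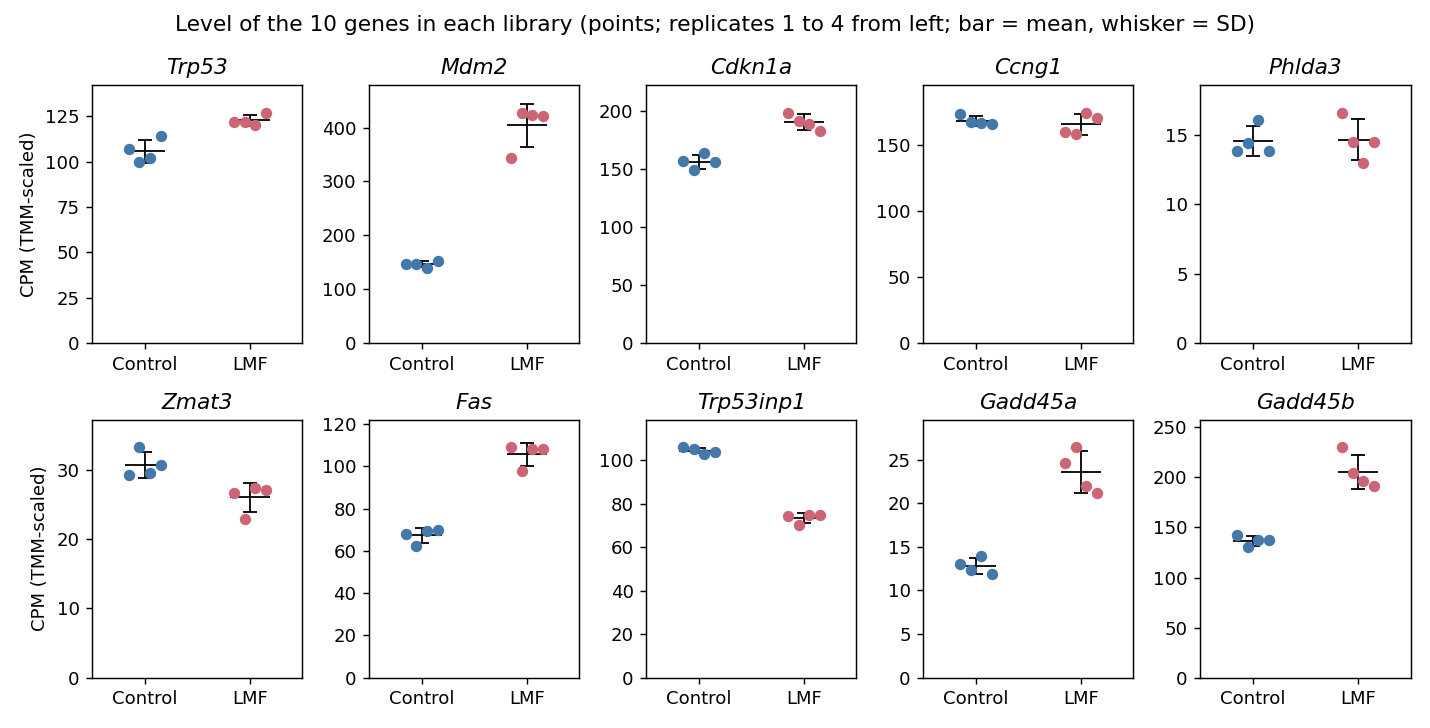
Level of each of the 10 genes in CPM (y axes from 0, a scale of its own for each gene) in the 4 Control and 4 LMF libraries, with replicates 1 to 4 from left to right, the mean as a bar and the SD as whiskers. Mdm2 in LMF runs from 343 to 428 CPM, above all Control libraries (139 to 152 CPM), while the Ccng1 and Phlda3 groups overlap.

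Mdm2, the ubiquitin ligase that limits p53, had the largest change of the 10. It lies on chromosome 10 from 117524780 to 117546663 on the minus strand in the table's own coordinates. Its level was 146, 147, 139 and 152 CPM in Control replicates 1 to 4 and 343, 428, 423 and 422 CPM in LMF replicates 1 to 4. The groups were far apart, and LMF replicate 1 lay below the other LMF libraries. From 146 ± 5.6 to 404 ± 40.8 CPM (mean ± SD, n = 4 each), the log2 fold change was 1.47 ± 0.06 (SE, adjusted p = 3.46e-11, edgeR), which is 2.77-fold. In absolute size this exceeded the log2 fold change of 99.0% of the tested genes, and Mdm2 ranked 102 of 14074 from the top. Without LMF replicate 1 the log2 fold change was 1.54, and without LMF replicate 4 it was 1.44.

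Counts per gene sum over both Mdm2 promoters, so these values do not say which of them was used. On the centred log2 CPM profile over the 8 libraries, the genes nearest to Mdm2 among 10545 candidates were Myo10, Mcoln2, Slc7a11, Il1a and Trim13. Their root mean square distances were 0.0728, 0.0731, 0.0824, 0.0926 and 0.0965. Their log2 fold changes lay between 1.36 (Trim13) and 1.53 (Il1a). Values near that of Mdm2 follow from the choice of these genes by likeness of profile.

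Trp53, the gene of p53 itself, rose slightly. Found on chromosome 11 from 69471185 to 69482699, it was at 107, 99.8, 102 and 114 CPM in the Control libraries and at 122, 122, 120 and 127 CPM in the LMF libraries. The lowest LMF library lay just above the highest Control library. The log2 fold change was 0.22 ± 0.05 (adjusted p = 2.13e-04, edgeR), or 1.16-fold.

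Mdm2 changed more than Trp53. The log2 ratio of Mdm2 to Trp53 counts within a library was 0.47 ± 0.06 in Control and 1.71 ± 0.15 in LMF (mean ± SD, n = 4 each, difference 1.24 ± 0.08 SE, two-sided exact permutation p = 0.0286, 0.0343 adjusted over the 6 ratios tested). All 4 LMF ratios lay above all Control ratios, and 0.0286 is the smallest p that 4 against 4 libraries allow.

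Cdkn1a encodes p21, the CDK inhibitor that halts the cell cycle and a classical target of p53. On chromosome 17 from 29309950 to 29319701, it was measured at 157, 149, 164 and 156 CPM in Control and at 199, 192, 189 and 183 CPM in LMF. The groups did not overlap, and the gap between them was narrow. Its log2 fold change of 0.28 ± 0.04 (adjusted p = 7.75e-07, edgeR) corresponds to 1.22-fold. The log2 ratio of Cdkn1a to Trp53 was 0.57 ± 0.09 in Control and 0.64 ± 0.07 in LMF, and the groups overlapped (difference 0.07 ± 0.06 SE, exact permutation p = 0.343). A p above the threshold does not show that they changed alike. A noncoding gene on the opposite strand, 1700023B13Rik, overlaps 1046 bases of Cdkn1a and had 0.554% of its counts.

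Ccng1 encodes cyclin G1, a p53 target that takes part in the feedback through MDM2, and Phlda3 encodes a PH-domain inhibitor of AKT. Neither passed the test. Ccng1, on chromosome 11 from 40639379 to 40646138, ranged from 166 to 174 CPM in Control and from 159 to 175 CPM in LMF. Its log2 fold change was -0.02 ± 0.04 (adjusted p = 0.747, edgeR), with a 95% interval (normal approximation) of 0.932-fold to 1.04-fold. Phlda3, on chromosome 1 from 135693857 to 135696874, ranged from 13.8 to 16.1 CPM in Control and from 13 to 16.6 CPM in LMF, at a log2 fold change of 0.01 ± 0.10 (adjusted p = 0.953). The interval was 0.88-fold to 1.15-fold, at 238 to 300 counts per library. The log2 ratio of Ccng1 to Cdkn1a went from 0.11 ± 0.07 in Control to -0.20 ± 0.11 in LMF without overlap (difference -0.31 ± 0.06 SE, exact permutation p = 0.0286, adjusted 0.0343).

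**Figure D2:**
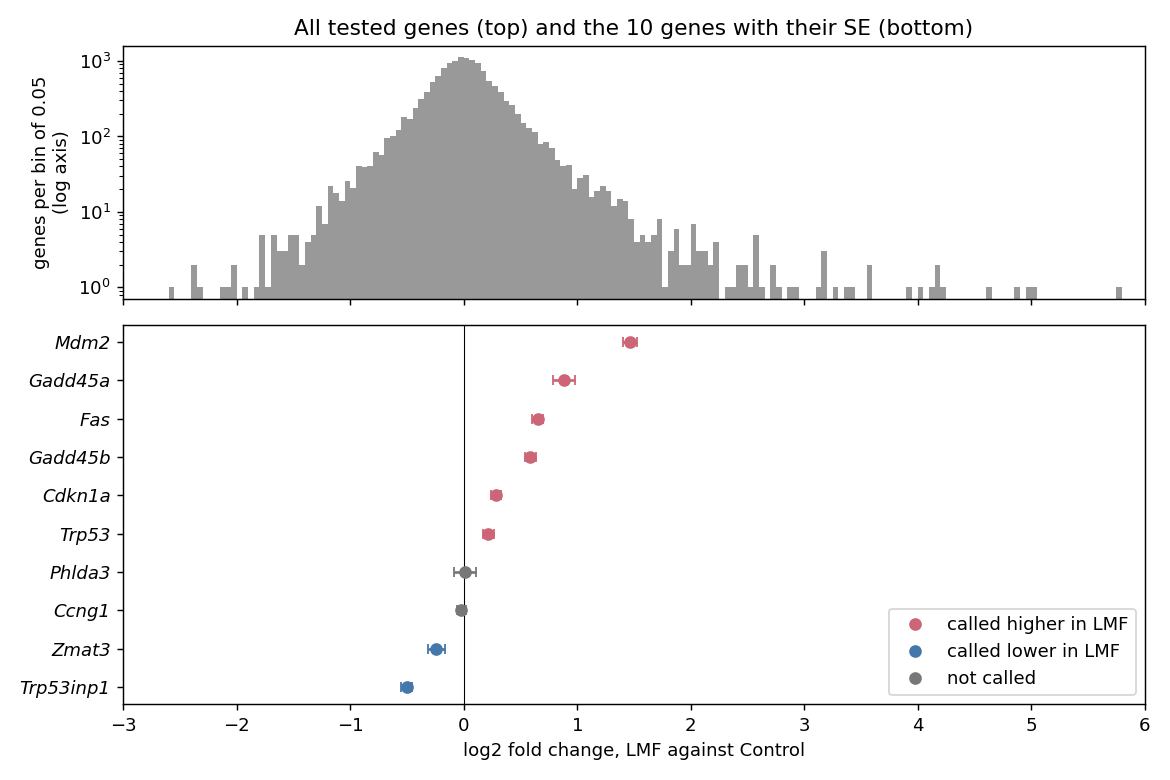
The top panel counts all 14074 tested genes by log2 fold change of LMF against Control (log y axis), and the bottom panel gives the 10 genes on the same x axis, with whiskers of 1 SE and colour for the call. Mdm2 lies at 1.47 in the right flank, Ccng1 and Phlda3 lie at the centre, and Trp53inp1 lies lowest at -0.50.

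Fas and Trp53inp1, both p53 targets linked to cell death, moved in opposite directions. Fas is a death receptor of the TNF receptor family, on chromosome 19 from 34268066 to 34305172. It was at 68.0, 62.3, 69.3 and 69.7 CPM in Control and 109, 97.7, 108 and 108 CPM in LMF. Every LMF library exceeded every Control library, and replicate 2 was the lowest of both groups. Fas rose by 0.65 ± 0.05 on the log2 scale (adjusted p = 6.62e-13, edgeR), 1.57-fold.

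Trp53inp1 encodes a nuclear protein that promotes p53 activity and autophagy, on chromosome 4 from 11156431 to 11174379. Its 4 Control values were 106, 105, 103 and 104 CPM and its 4 LMF values 74.5, 70.3, 74.7 and 74.7 CPM. The groups were tight and well separated. The log2 fold change was -0.50 ± 0.05 (adjusted p = 3.62e-11, edgeR), or 0.705-fold. The log2 ratio of Fas to Trp53inp1 went from -0.63 ± 0.09 to 0.52 ± 0.03, with no overlap (difference 1.15 ± 0.05 SE, exact permutation p = 0.0286, adjusted 0.0343). Fas was higher and Trp53inp1 lower in every LMF library than in any Control library. The ratio therefore had to separate, and its p adds nothing to the calls of these genes. The profiles nearest to that of Trp53inp1 were those of Appl2, Neurl3, Klhl24, Xbp1 and Zfp652. Their distances over the 8 libraries were 0.0297, 0.0339, 0.0367, 0.0371 and 0.0383. Their log2 fold changes of -0.56 to -0.47 lie near that of Trp53inp1 because the genes were chosen by likeness of profile.

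Zmat3, an RNA-binding zinc finger gene activated by p53, was lower in LMF by a small margin. It lies on chromosome 3 from 32388941 to 32420163 and was at 29.3, 33.3, 29.6 and 30.8 CPM in Control and 26.7, 22.9, 27.4 and 27.2 CPM in LMF. The groups did not overlap. Zmat3 fell by 0.24 ± 0.08 on the log2 scale (adjusted p = 0.0123, edgeR). The call was lost under 4 alternatives. The adjusted p was 0.0622 without Control replicate 2, 0.0699 without LMF replicate 2, and 0.0647 and 0.0674 with limma-trend on log2 FPKM with pseudocounts of 1 and 0.1.

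Both GADD45 genes rose, from very different levels. Gadd45a, on chromosome 6 from 67012080 to 67014441, was at 13, 12.3, 14 and 11.9 CPM in Control and 24.6, 26.4, 22 and 21.2 CPM in LMF. Its log2 fold change was 0.88 ± 0.09 (adjusted p = 1.21e-09, edgeR), or 1.84-fold. Gadd45b, on chromosome 10 from 80765907 to 80768038, was at 142, 130, 137 and 137 CPM in Control and 230, 204, 196 and 191 CPM in LMF. This log2 fold change was 0.59 ± 0.05 (adjusted p = 1.26e-11, edgeR), or 1.5-fold. In neither gene did the groups overlap. Gadd45b was highest in LMF replicate 1, the library where Mdm2 was lowest.

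Gadd45a shares 859 bases with E230016M11Rik on the opposite strand, a row with 18.1% of the counts of Gadd45a. That row did not pass the test (3.33 ± 0.450 CPM in Control, 3.15 ± 0.458 CPM in LMF, log2 fold change -0.07 ± 0.20, adjusted p = 0.815). The labels do not say whether counting used strand, so the exact level of Gadd45a is uncertain.

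The GADD45 genes did not change by equal amounts. The log2 ratio of Gadd45b to Gadd45a was 3.42 ± 0.10 in Control and 3.12 ± 0.12 in LMF, with no overlap (difference -0.30 ± 0.08 SE, exact permutation p = 0.0286, adjusted 0.0343). Without LMF replicate 2 the difference was -0.24 and no longer passed (adjusted p = 0.0686). The log2 ratio of Gadd45b to Cdkn1a went from -0.20 ± 0.05 to 0.10 ± 0.08 (difference 0.30 ± 0.05 SE, exact permutation p = 0.0286, adjusted 0.0343).

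**Figure D3:**
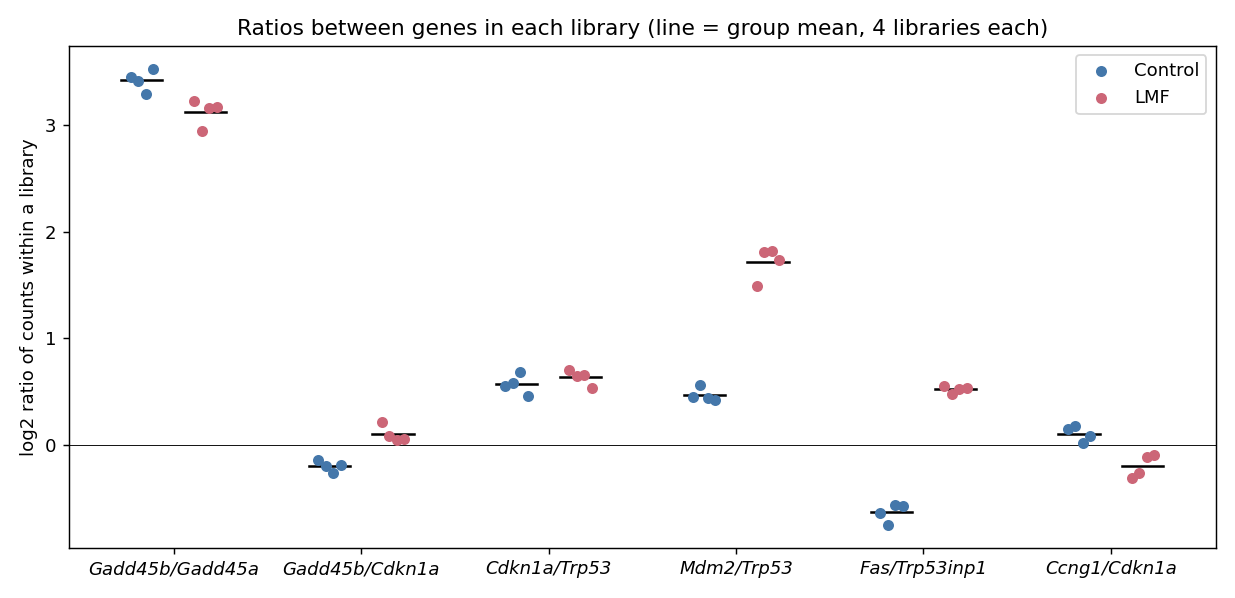
Log2 ratio of the counts of 2 genes within each library (y axis), for 6 ratios, with 4 Control and 4 LMF libraries as points and group means as lines. The groups are apart in 5 ratios, among them Mdm2/Trp53 (means 0.47 and 1.71) and Fas/Trp53inp1 (means -0.63 and 0.52), and overlap in Cdkn1a/Trp53 (means 0.57 and 0.64).

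Levels of different genes can be set side by side only per length, for which the deposited FPKM were used. In Control, Gadd45b was the most abundant of the 10 at 86.1 ± 3.44 FPKM, followed by Ccng1 (48.1 ± 1.36), Cdkn1a (44.2 ± 1.78), Fas (32.7 ± 1.66), Mdm2 (28.8 ± 1.03) and Trp53 (26.1 ± 1.46). Below them came Trp53inp1 at 16.1 ± 0.326, Phlda3 at 9.34 ± 0.701, Gadd45a at 7.25 ± 0.545 and Zmat3 at 2.69 ± 0.149 FPKM. Of neighbours in this order, only Mdm2 and Trp53 overlapped between libraries. In LMF, Mdm2 reached 79.1 ± 7.76 FPKM, behind Gadd45b at 129 ± 11.3 and ahead of Cdkn1a at 53.5 ± 1.85 FPKM. Gadd45a stayed far below Gadd45b, at 13.3 ± 1.28 FPKM. The length behind the FPKM is not given. The listed gene length is longer than the span of the gene for Gadd45a and Gadd45b (5142 and 2683 bases listed, 2362 and 2132 bases spanned), and dividing CPM by it changed the order. Per kb of listed length Trp53 was just ahead of Mdm2 in Control (9.68 and 9.63 CPM), and in LMF Mdm2 at 26.6 CPM was behind Ccng1 at 38.5 and Cdkn1a at 27.1 CPM, so its second place in LMF holds on the FPKM scale alone.

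Other genes of the p53 network went both ways. Among 44 tested p53 targets beyond the 10, in 3 lists by function, 12 rose (27.3%) and 13 fell (29.5%), against 17.5% and 16.9% of all tested genes, and their median log2 fold change was 0.009. Of 12 targets in arrest and stress 6 rose (50%) and 3 fell (25%, median 0.24). The stress kinase Plk2 rose from 36.4 ± 3.28 to 321 ± 51.9 CPM (log2 fold change 3.14 ± 0.15), the stress cytokine Gdf15 from 16.1 ± 1.23 to 43.8 ± 7.06 CPM (1.45 ± 0.09) and Plk3 from 15.1 ± 1.63 to 39.4 ± 5.58 CPM (1.38 ± 0.09). Sesn1, a sestrin that restrains mTORC1, fell from 68.2 ± 2.92 to 35.7 ± 2.04 CPM (-0.94 ± 0.06), and the antiproliferative gene Btg2 fell from 88.2 ± 1.4 to 70.9 ± 3.06 CPM (-0.32 ± 0.05).

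Of 15 targets in cell death 4 rose (26.7%) and 2 fell (13.3%, median 0.08), against 17.5% and 16.9% of all tested genes. Under several alternatives 3 rose, among them upper-quartile factors, the replicate block and the fits without LMF replicate 1 or LMF replicate 4. Without LMF replicate 1, 4 fell. Those that rose included the death receptor gene Tnfrsf10b (0.76 ± 0.20, from a low 2.68 ± 0.770 CPM), the autophagy gene Dram1 (0.46 ± 0.04) and Pmaip1, the BH3-only protein NOXA (0.31 ± 0.05). Bbc3, the BH3-only protein PUMA, fell from 42.8 ± 2.92 to 31.8 ± 3.52 CPM (-0.43 ± 0.07). Bax, the pore-forming death effector, was at 39.6 ± 1.97 and 40.1 ± 5.97 CPM (0.02 ± 0.08, adjusted p = 0.906, edgeR), and its sign turned under several alternatives.

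Of 17 targets in repair and metabolism 2 rose (11.8%) and 8 fell (47.1%, median -0.17), against 17.5% and 16.9% of all tested genes. Pcna, the replication clamp, rose from 143 ± 5.09 to 190 ± 12.8 CPM (0.41 ± 0.04) and the glutaminase Gls2 by 0.64 ± 0.12. Dcxr (-0.48 ± 0.10) and the lipid phosphatase gene Lpin1 (-0.47 ± 0.06) fell. Ddb2, which recognises ultraviolet damage, was at 4.42 ± 0.323 and 3.92 ± 0.281 CPM and did not pass (-0.17 ± 0.17, adjusted p = 0.475). Gls2, Ddb2, and Bid and Ccnd1 named further on, overlap a gene on the opposite strand whose counts were at least 80.4% of theirs, so their values are uncertain.

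**Figure D4:**
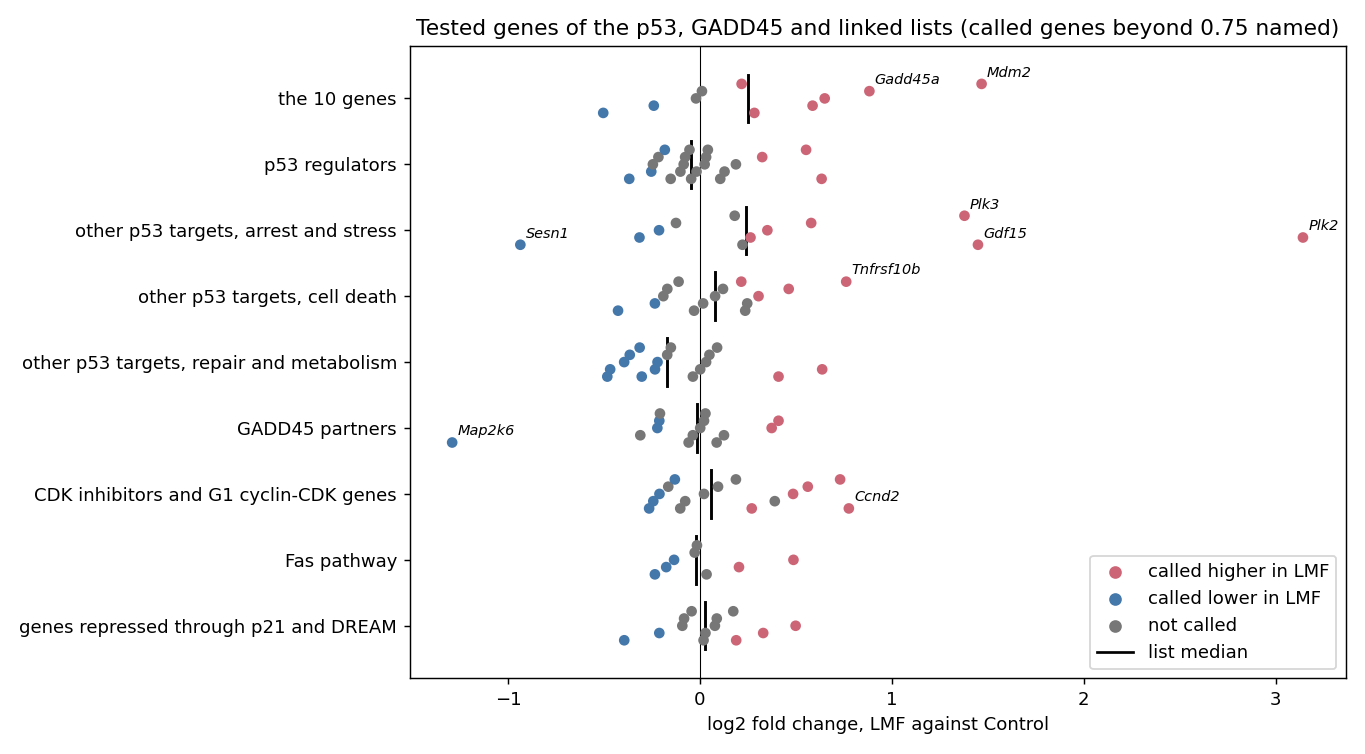
Log2 fold change of LMF against Control (x axis) for the tested genes of each list (rows), coloured by call, with the list median as a vertical line and called genes beyond 0.75 named. The arrest and stress targets run from Sesn1 at -0.94 to Plk2 at 3.14, and the repair and metabolism targets have a median of -0.17.

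Upstream of p53, 3 of 21 regulators rose and 3 fell (median -0.05), 14.3% each way and below the 17.5% and 16.9% of all tested genes. Those that rose were the deacetylase gene Sirt1 (0.63 ± 0.06, from 43.8 ± 3.72 to 68.0 ± 4.81 CPM) and the checkpoint kinase genes Chek1 (0.55 ± 0.19) and Atr (0.32 ± 0.09), the last not called on the FPKM scale (limma-trend adjusted p = 0.0852 and 0.119). The checkpoint kinase gene Chek2 fell by 0.37 ± 0.08 on the log2 scale. The Chek1 call was lost without Control replicate 2 (adjusted p = 0.106) or LMF replicate 2 (0.0676). Mdm4, the partner of MDM2 in restraining p53, was at 192 ± 7.26 and 186 ± 9.05 CPM and did not pass (-0.05 ± 0.04, adjusted p = 0.435, edgeR). Without LMF replicate 4, 5 regulators fell.

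Among 14 GADD45 partners and kinases around them, 2 rose (14.3%) and 3 fell (21.4%), near the shares of all tested genes (17.5% and 16.9%, median -0.02 in the list). Tdg, a glycosylase of DNA demethylation, rose by 0.37 ± 0.06, beside Pcna. Map2k6, a kinase that activates p38, fell from 4.40 ± 0.780 to 1.80 ± 0.294 CPM (-1.29 ± 0.21), and Map2k7, the JNK kinase that GADD45B inhibits, from 40.1 ± 2.76 to 34.4 ± 2.51 CPM (-0.22 ± 0.07). The Map2k7 call was lost without Control replicate 2 (adjusted p = 0.0697). The third family member, Gadd45g, was at 18.1 ± 1.54 and 15.7 ± 1.82 CPM and did not pass (-0.21 ± 0.10, adjusted p = 0.0944, edgeR), and it passed without LMF replicate 2 (-0.28, adjusted p = 0.0340). Map3k4, the MEKK4 kinase, did not pass (-0.06 ± 0.08, adjusted p = 0.620).

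Around p21, 5 of 16 CDK inhibitor and G1 cyclin-CDK genes rose (31.2%) and 4 fell (25%), beside 17.5% and 16.9% of all tested genes (list median 0.06). The D-type cyclin Ccnd2 rose from 10.8 ± 0.908 to 18.6 ± 2.30 CPM (0.78 ± 0.10), Cdk6 by 0.56 ± 0.06 and Cdkn2b, a CDK inhibitor, by 0.49 ± 0.09. Ccnd1 was called at 0.73 ± 0.24 and its groups overlapped. The call was lost on log2(FPKM + 0.1) (adjusted p = 0.0504), without Control replicate 1 (0.0763) and without LMF replicate 3 (0.0942), and without the latter 3 genes of this list rose. Of 13 genes that p21 is known to lower through the DREAM repressor complex 3 rose (23.1%) and 2 fell (15.4%), near the 17.5% and 16.9% of all tested genes (list median 0.03). Under most alternatives 2 rose, among them both FPKM fits, the replicate block and the fits without LMF replicate 1 or LMF replicate 4. Mki67, a proliferation marker, rose from 163 ± 10.3 to 230 ± 21.9 CPM (0.50 ± 0.06) and the spindle checkpoint kinase gene Bub1 by 0.33 ± 0.08. Aurkb (-0.39 ± 0.07) and Cdk1 (-0.21 ± 0.06) fell.

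Downstream of Fas, 2 of 8 tested genes rose (25%) and 3 fell (37.5%), beside 17.5% and 16.9% of all tested genes (list median -0.02). Cflar, which encodes the caspase-8 inhibitor FLIP, rose from 145 ± 4.27 to 203 ± 10.2 CPM (0.49 ± 0.04). Bid, the BH3-only protein cut by caspase-8, was at -0.23 ± 0.06 and fell. Under 6 alternatives Cflar was the 1 gene of the list that rose, 2 of them the FPKM fits and 4 the fits without Control replicate 3, Control replicate 4, LMF replicate 2 or LMF replicate 3. Fasl, the ligand, had at most 10 counts in a library and was not tested (named after its counts were seen).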

How the data were processed

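Poly(A)-enriched RNA was sequenced, per the labels' protocols. The build mm10 and, without roles, DESeq2, HTSeq, HISAT2 2.0.5 and Trimmomatic are named in the submitters' processing notes. Unnormalized counts and FPKM of each gene stand side by side in the authors' deposited table. Of 52135 table IDs in GENCODE M21 (mm10), 1543 have its coordinates, so the table's coordinates are printed as its own, and their build is not given in the sources used here. Promoters are GRCm38.p6 and are not mixed with the table's coordinates.

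From the counts, edgeR 4.0.16 (R 4.3.3) gave quasi-likelihood tests on 14074 genes that passed filterByExpr, scaled by TMM, with p-values adjusted by Benjamini-Hochberg. The SE was derived from the F statistic (absolute log2 fold change divided by its root). CPM were computed with the TMM-scaled library sizes. Alternatives were other scalings and filters, DESeq2 1.42.0, limma 3.58.1 (voom, and trend on log2 FPKM), the replicate number as a block, and leaving out each library. Ratios used counts plus 0.5. The members and lists were chosen with earlier results of these data known. Beyond the 10 genes, the text names up to 4 called genes per list by absolute log2 fold change (mean log2 CPM of at least 0) and 10 fixed symbols, except some that are not reported here. Genes with the nearest profile have a mean log2 CPM of at least 2. Chi-square per degree of freedom between libraries was 3.50 to 7.80 within groups and 26.6 to 35.2 between, so no pair looked like 1 library deposited again. On simulated counts the test called 38% of 1.25-fold, 68% of 1.5-fold, 90% of 2-fold and 100% of 4-fold changes. Of unchanged genes it called 0.0585%. In this step 47 to 50 of 13876 genes were changed at each size, while 4845 of 14074 were called in the data. The adjusted threshold depends on the share of changed genes, so these percentages need not hold for the data. Small changes may still be missed. Protein sequences were not used here.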

Additional observations from a re-analysis of the deposited data

Results flagged for a closer look

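In 14 of 90 groups of 4 libraries, 1 library lay apart from the other 3 by Dixon's test at 5%, where chance gives about 4.5. Among the 10 genes, the Mdm2 level of LMF replicate 1 was 343 CPM (others 422 to 428). In LMF replicate 2, Zmat3 was at 22.9 CPM (others 26.7 to 27.4), Fas at 97.7 CPM (others 108 to 109) and Trp53inp1 at 70.3 CPM (others 74.5 to 74.7). Of the other genes, Plk2 was at 243 CPM in LMF replicate 1 (others 345 to 348), and in LMF replicate 2 Gdf15 was at 54.3 CPM (others 39.1 to 41.5) and Lpin1 at 35.6 CPM (others 37.6 to 37.9).

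In Control replicate 1, Atr was at 17.9 CPM (others 15.4 to 15.5), Pmaip1 at 120 CPM (others 105 to 107) and Bid at 40.5 CPM (others 46.8 to 47.9). In Control replicate 2, Mki67 was at 178 CPM (others 157 to 160) and Btg2 at 90.3 CPM (others 87.3 to 87.7). Control replicate 3 had Gdf15 at 17.9 CPM (others 15.4 to 15.5) and Bbc3 at 47.2 CPM (others 40.9 to 42.0).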

How the results depend on the processing

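Of the 10 genes, 8 kept direction and side of the threshold under all 18 alternatives of the fit, with Mdm2 at 1.42 to 1.54. The exceptions were Zmat3, whose call was lost under 4, and Phlda3, never called, whose sign turned with voom (-0.0108) and over left-out libraries, -0.0584 (LMF replicate 1) to 0.0623. The count of members lower was 1 in place of 2 on log2(FPKM + 1) and log2(FPKM + 0.1), and 1 to 2 when a library was left out. Leaving out a library gave 3 to 5 lower p53 regulators, and 3 to 4 higher and 2 to 4 lower cell death targets. It also gave 3 to 5 higher CDK inhibitor and cyclin genes and 1 to 2 higher Fas pathway genes, and both FPKM fits gave 1 of the latter. Of the genes lowered through DREAM, 2 to 3 were higher over left-out libraries, and 2 on both FPKM fits. Bax, never called, turned sign with voom (-0.0136), on log2(FPKM + 1) (-0.0012) and log2(FPKM + 0.1) (-0.0017), and ran from -0.0454 to 0.1124 over left-out libraries. The cause was not tested.

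Same-numbered libraries did not deviate together (correlations -0.013 to 0.028), so the numbers were not taken to pair them. With the replicate block 4774 genes were called, against 4845. An exact sign-flip permutation test over 4 pairs cannot go below p = 0.125. The ratio differences of -0.30 (Gadd45b/Gadd45a), 0.30 (Gadd45b/Cdkn1a), 1.24 (Mdm2/Trp53), 1.15 (Fas/Trp53inp1) and -0.31 (Ccng1/Cdkn1a) had an adjusted exact p of 0.15 with the replicate block. Without LMF replicate 2 the Gadd45b/Gadd45a difference was -0.24, and over all left-out libraries it was -0.34 to -0.24.

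Per kb of listed length, Control levels were 50.9 CPM (Gadd45b), 39.1 (Ccng1), 22.3 (Cdkn1a), 12.1 (Fas), 9.63 (Mdm2), 9.68 (Trp53), 7.96 (Trp53inp1), 7.26 (Phlda3), 2.48 (Gadd45a) and 1.56 (Zmat3). Depth limits Phlda3 and Gadd45a most, with 238 to 300 and 204 to 469 counts per library.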
